A study of Mus musculus with 32 samples.

Results

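The SIX-family and EYA-family genes described here were the 8 listed members *Six2*, *Six3*, *Six4*, *Six5*, *Eya1*, *Eya2*, *Eya3* and *Eya4*, 8 of the 55806 gene identifiers counted in the series. They were listed by name, but with earlier results of these data known. All 8 had a row in each of the 4 count tables. SIX-family proteins are homeodomain transcription factors, and EYA proteins are co-activators with phosphatase activity that bind them. In the embryonic kidney, *Six2* keeps nephron progenitors in the undifferentiated state and *Eya1* is needed for the metanephric mesenchyme and acts together with *Six2*. *Six3* is known for its part in forebrain and eye development. The study expressed mutants of ENL, a YEATS-domain reader of acylated histones encoded by *Enl* (*Mllt1*), in either the nephron or the stromal lineage of the mouse kidney. It had already reported lower *Six2* and *Eya1* with the mutants in the nephron lineage.

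RNA was counted in 32 libraries of 11 groups. The nephron-lineage embryos were Six2-TGC tg/+; Enl +/+ (WT), Six2-TGC tg/+; Enl T1/+ and Six2-TGC tg/+; Enl T3/+. Whole Six2-TGC kidneys at E18.5 gave 2 libraries each of WT, T1 and T3. Sorted tdTomato-positive Six2-TGC cells gave 3 WT and 3 T1 libraries at each of E14.5 and E18.5. The stromal-lineage embryos were Foxd1 GC/+; Enl +/+ (WT) and Foxd1 GC/+; Enl T1/+, with 3 and 3 libraries of whole kidneys and 4 and 4 libraries of sorted tdTomato-positive cells, all at E18.5. T1 is a small in-frame insertion in the YEATS domain and T3 a small deletion there. Both were heterozygous knock-ins expressed from the endogenous *Enl* promoter after Cre recombination, on a C57BL/6J background.

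Every control carried the same Cre allele as its mutants. Six2-TGC is a bacterial artificial chromosome (BAC) transgene in which *Six2* regulatory DNA drives a GFP-Cre fusion, and the strain has been reported to carry *Six3* within that BAC. In Foxd1-GC a GFP-Cre cassette replaces 1 *Foxd1* allele, so all Foxd1-GC embryos had a single intact *Foxd1* allele. Sorted cells also carried a Cre-dependent tdTomato reporter. Because reads were counted per gene, transcripts from the transgene and from the endogenous *Six2* and *Six3* loci cannot be told apart. Cre line and the read length given by the study changed together and cannot be told apart in any comparison between lines. The labels name no cohort or sequencing run, so any difference in these cannot be told apart from Cre line either. Sorted Foxd1-GC libraries were counted over 55471 gene identifiers and all others over 54752. Comparisons between lines used the shared identifiers. The labels do not say whether the libraries of a group came from separate embryos, so the p-values measure the spread between these libraries.

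Total counts ran from 106005614 to 157266455 in whole Six2-TGC kidneys, 67137194 to 79343015 in whole Foxd1-GC kidneys, 76510702 to 137888792 in sorted Six2-TGC cells and only 2557443 to 3508381 in sorted Foxd1-GC cells. Levels are CPM, counts divided by library sizes that were set on a single scale over all 32 libraries, and levels of different genes are compared as RPKM (CPM per kilobase of exon). *Mllt1* lay at 86.0 ± 3.59 CPM (SD, n = 3) in sorted T1 Six2-TGC cells and 89.8 ± 4.34 CPM (n = 3) in their controls at E18.5, but a knock-in that alters a few codons cannot be checked by the count of the gene. The nephron progenitor markers matched the sorted labels in part. The summed level of 6 such markers was 957 to 1217 CPM in sorted WT Six2-TGC cells at E18.5 and 239 to 323 CPM in sorted WT Foxd1-GC cells. *Spock2* made up most of the Six2-TGC sum, with means of 707 and 30.5 CPM. *Crym* (61.8 and 20.6 CPM) and *Gdnf* (78.3 and 37.0 CPM) were also higher in Six2-TGC. *Cited1* went the other way, with means of 39.4 and 49.1 CPM. *Meox1* (7.00 and 7.16 CPM) and *Itga8* (171 and 145 CPM) hardly separated the lineages. The summed level of 6 stromal markers was 246 to 368 CPM in these Six2-TGC cells and 4562 to 5548 CPM in these Foxd1-GC cells. No marker of either list was at 0 counts throughout a group. In the skeletal muscle list, *Myh8* was at 0 in the sorted E18.5 groups, as was *Myog* in sorted WT Foxd1-GC cells.

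*Six2* (ENSMUSG00000024134) lies on the minus strand at chr17:85684277-85688274 and *Six3* (ENSMUSG00000038805) on the plus strand at chr17:85613608-85629302 (GENCODE vM21 on GRCm38). Their annotated starts are 74.666 kb apart, and 54.974 kb separate the gene bodies, which face each other. The 250 bases upstream of the RefSeq start of each gene (GRCm38.p6) are shown because the comparison between Cre lines turns on these neighbouring genes. Capitals mark CCAAT or, on the other strand, ATTGG. The *Six2* window is chr17:85688255-85688504 on the minus strand, and the *Six3* window is chr17:85620584-85620833 on the plus strand.
Six2: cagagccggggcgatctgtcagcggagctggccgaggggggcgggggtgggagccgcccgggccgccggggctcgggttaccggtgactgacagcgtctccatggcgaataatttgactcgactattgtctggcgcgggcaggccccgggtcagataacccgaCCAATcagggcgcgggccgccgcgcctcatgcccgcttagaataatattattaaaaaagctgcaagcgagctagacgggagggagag
Six3: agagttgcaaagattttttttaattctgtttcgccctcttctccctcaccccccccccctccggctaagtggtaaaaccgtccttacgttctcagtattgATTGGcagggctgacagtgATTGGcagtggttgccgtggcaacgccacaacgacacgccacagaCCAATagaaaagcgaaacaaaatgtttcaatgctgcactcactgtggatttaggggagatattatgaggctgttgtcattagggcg

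The *Six2* window had a GC content of 64.8% with 26 CpG, and the *Six3* window 48.8% with 10 CpG. The median over all 32851 RefSeq windows of this length was 52.4% with 6 CpG. Each window held a forward CCAAT at nearly the same distance, 87 to 83 bases before the start in *Six2* and 86 to 82 in *Six3*, and *Six3* held 2 more on the reverse strand. CCAAT was found on either strand in 33.85% of all windows. The SIX-binding core TGATAC (4.642% of all windows), the MEF3 motif TCAGGTT (3.492%) and TATAAA (12.37%), searched on both strands, were in neither window. Of the 6 members with a RefSeq window, only *Six4* held a MEF3 motif, on the reverse strand 97 to 91 bases before one of its starts. The *Six3* window lies inside the longer GENCODE gene and overlaps an exon of the antisense Gm28528. *Eya1* and *Eya2* were not among the windows.

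*Six3* was well covered in every Six2-TGC library and at 0 to 2 counts in every Foxd1-GC library. In whole WT kidneys at E18.5 its level was 15.1 and 20.1 CPM in the 2 Six2-TGC libraries, whereas the 3 Foxd1-GC libraries held 0, 0 and 2 counts. The groups did not overlap. Summed over each group, 4873 counts stood against 2, a ratio of 1989 after scaling for depth with an exact 95% interval of 550.3 to 16429. Both Foxd1-GC counts came from 1 library, and the interval covers counting error only, with each read taken as independent. In T1 kidneys, 13.3 and 12.6 CPM in Six2-TGC stood against 0 counts in all 3 Foxd1-GC libraries, so the level was at least 893.8-fold higher in Six2-TGC. This bound sets the 3 Foxd1-GC libraries together at 3 counts, and it too covers counting error only.

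Sorted cells showed the same split. *Six3* was at 49.7, 47.1 and 58.5 CPM in sorted WT Six2-TGC cells at E18.5, and at 0 counts in all 4 sorted WT Foxd1-GC libraries, at least 216.6-fold lower. For sorted T1 cells the values were 37.2, 40.8 and 37.0 CPM against 0 counts in 4 libraries, at least 159.5-fold lower. These bounds are smaller than in whole kidneys because the sorted Foxd1-GC libraries were the shallowest. The lineages also differ in cell type, so line and cell type cannot be told apart in the sorted comparison.

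The ratio of *Six3* to *Six2* within each library does not depend on the scaling between libraries. Per 100 *Six2* counts, whole Six2-TGC kidneys held 40.0 ± 2.82 *Six3* counts in WT, 67.0 ± 3.12 in T1 and 58.2 ± 4.49 in T3 (SD, n = 2 each). Whole Foxd1-GC kidneys held 0.00758 ± 0.0131 in WT and 0 in T1 (n = 3 each). On the log2 scale, with 0.5 added to each count, the mean over the 6 Six2-TGC libraries was -0.90 (SD 0.35) and over the 6 Foxd1-GC libraries -14.16 (SD 1.20). The difference of 13.26 gave p = 0.0021645 in an exact 2-sided permutation test, the smallest p this design allows. That test shuffled WT, T1 and T3 libraries together without regard to genotype. Yet the ratio differed between genotypes within Six2-TGC, and T3 was in that line only. In libraries with 0 *Six3* counts the log2 ratio is set by the number added and the *Six2* count. The size of the difference therefore depends on that number. With 1 added to each count it was 12.38, with the same exact p. With WT libraries alone the difference was 12.12 and the exact p was 0.2, again the smallest possible with 2 against 3 libraries.

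**Figure D1:**
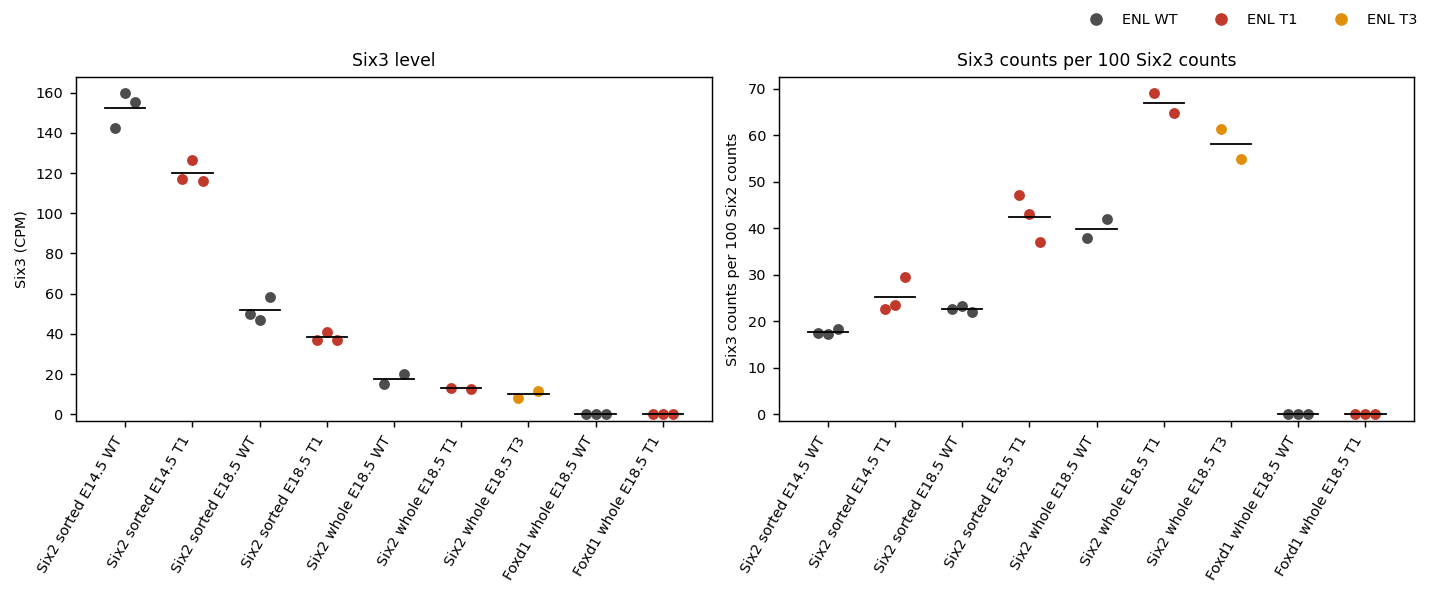
*Six3* level in CPM (left) and *Six3* counts per 100 *Six2* counts (right) for each library (points) with group means (black bars), sorted and whole Six2-TGC and whole Foxd1-GC groups, colored by ENL genotype. All Foxd1-GC points lie on or next to 0, while the Six2-TGC groups run from a mean of 17.7 per 100 in sorted WT cells at E14.5 to 67.0 per 100 in whole T1 kidneys.

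Among the Six2-TGC groups the ratio was higher in the mutants in each of the 3 experiments. In sorted cells at E14.5 it was 17.7 ± 0.573 per 100 in WT and 25.2 ± 3.74 in T1 (SD, n = 3 each), and at E18.5 it was 22.6 ± 0.658 and 42.5 ± 5.06. No library of T1 overlapped its control group. The T1 minus WT difference in log2 ratio was 0.50 at E14.5, 0.90 at E18.5 and 0.75 in whole kidneys, with exact permutation p-values of 0.1, 0.1 and 0.333, each the smallest its design can give. T3 minus WT in whole kidneys was 0.54, with an exact p of 0.333. The mean T1 difference over the 3 experiments was 0.72. Corrected for exon length, the highest group mean was 26.1 *Six3* per 100 *Six2*, in whole T1 kidneys, and the lowest in Six2-TGC was 6.89, in sorted WT cells at E14.5.

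The other genes annotated within 500 kb of *Six2* did not all differ between the lines. In whole WT kidneys, *Camkmt*, a calmodulin methyltransferase, had a mean of 8.21 CPM in Six2-TGC and 9.41 CPM in Foxd1-GC, a log2 difference of -0.24 with an adjusted p of 0.0755. *Prkce*, a protein kinase C isoform on the other side of *Six2*, had 44.7 and 40.0 CPM. *Srbd1* had 39.4 and 27.3 CPM, a log2 difference of 0.48 (adjusted p = 8.05e-05) that did not reach the fold change of 1.5. The noncoding AC166821.1, whose start is 5.355 kb from that of *Six2*, had 12.6 and 13.5 CPM in WT but 4.01 and 17.1 CPM in T1, where its log2 difference was -2.12. Gm29418, a noncoding RNA, was lower in Six2-TGC in both genotypes, by log2 differences of -1.36 in WT and -3.73 in T1.

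Both genes annotated antisense to *Six3* had counts in Six2-TGC kidneys. *Six3os1* had a mean of 0.313 CPM in whole WT Six2-TGC kidneys (38 to 47 counts) and 0 counts in all 3 WT Foxd1-GC libraries. In T1 kidneys its means were 0.114 CPM in Six2-TGC and 0.0202 CPM in Foxd1-GC (0 to 3 counts). Counting ignored strand, so these counts do not show which strand was transcribed. Of the exon sequence of *Six3os1* 10.8% overlaps other genes, and of that of *Six3* 5.03%. Reads of overlapping genes cannot be told apart. Gm28528, with 30.3% of its exon sequence shared, had 0.209 CPM and 0 counts in WT, and 0.142 CPM and 0 counts in T1. Of the 21 genes in the window, 10 had at most 1 count in every whole WT and T1 library of both lines, the short noncoding RNAs within and beside *Six3* among them. The unclassified AC154542.1 had 0 to 4 counts in the whole WT kidney libraries of both lines. In sorted WT Six2-TGC cells it had 76 to 97 counts at E14.5 and 10 to 30 at E18.5. The ribosomal pseudogene *Rpl31-ps16* had 27.7 and 0.115 CPM in whole WT kidneys, and 32.6 CPM in sorted WT Six2-TGC cells at E18.5. It shares sequence with *Rpl31*, the library sets differed in read length, and its counts are uncertain.

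**Figure D2:**
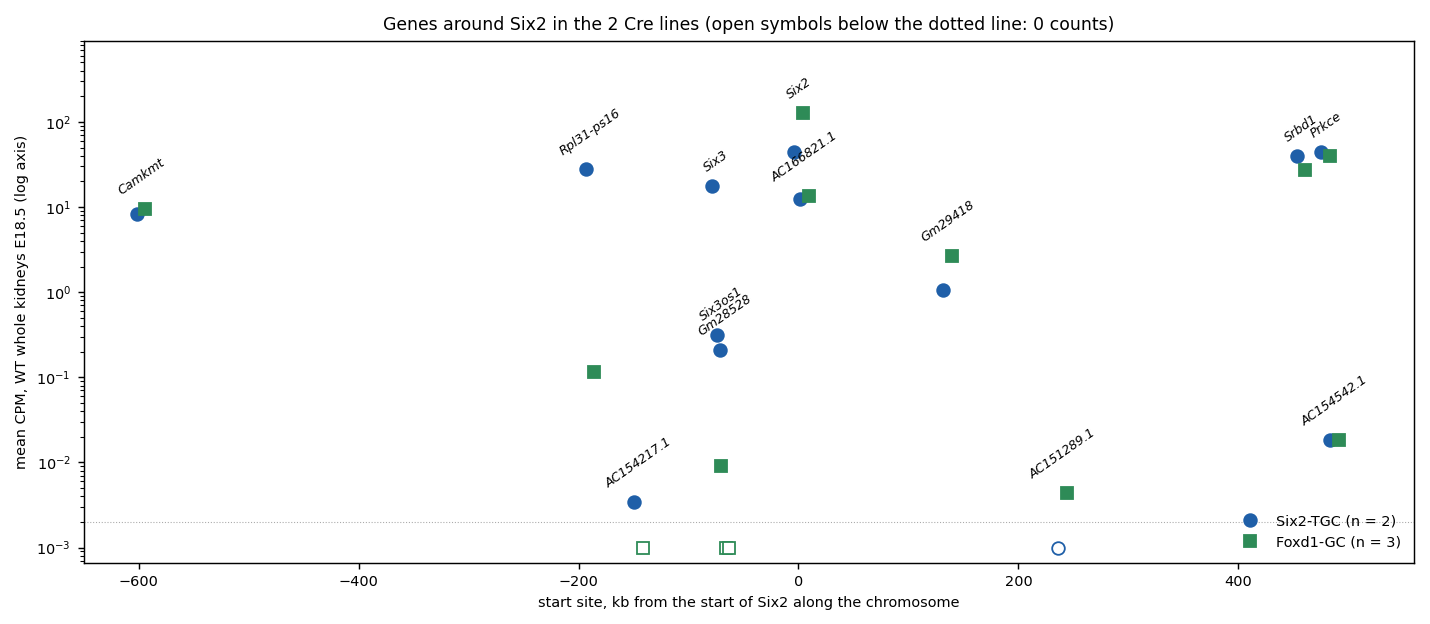
Mean CPM (log axis) in whole WT kidneys at E18.5 of the genes within 500 kb of *Six2*, placed by the distance of their start from that of *Six2* in kb, in Six2-TGC (n = 2) and Foxd1-GC (n = 3). *Six3*, the genes annotated antisense to it and the pseudogene *Rpl31-ps16* stand far apart between the lines, whereas *Camkmt*, *Prkce* and *Srbd1* lie close together.

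*Six2* itself was lower in the Six2-TGC line. *Six2* was at 39.9 and 48.0 CPM in whole WT Six2-TGC kidneys, and at 137, 126 and 121 CPM in whole WT Foxd1-GC kidneys. These groups did not overlap, and the log2 difference was -1.59 ± 0.16 (SE; edgeR quasi-likelihood, Benjamini-Hochberg adjusted p = 1.33e-06), 3.02-fold lower in Six2-TGC. In T1 kidneys the values were 19.2 and 19.5 CPM against 249, 202 and 204 CPM, a log2 difference of -3.53 ± 0.18 and 11.5-fold lower (adjusted p = 6.09e-10). In whole tissue, fewer cells of a type and less RNA per cell cannot be told apart. The summed nephron progenitor markers were 422 to 485 CPM in the WT Six2-TGC kidneys and 491 to 517 CPM in the WT Foxd1-GC kidneys. Of the 6, *Cited1* and *Meox1* were called lower and 4 were not called. *Cited1* had means of 7.43 CPM in Six2-TGC and 44.0 CPM in Foxd1-GC, and *Meox1* 10.8 and 18.7 CPM. The part of these cells in the difference in *Six2* was not tested.

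*Six3* passed the count filter between the lines only through the Six2-TGC group and is left out of the member counts there. Of the other 7 members, 3 were called between WT lines, where 25.3% of all tested genes were called (adjusted p under 0.05, fold change over 1.5). *Six2* and *Six5*, a widely expressed SIX-family gene, were lower in Six2-TGC, *Six5* at 23.6 and 26.9 CPM against 52.3, 54.3 and 46.4 CPM (log2 difference -1.07 ± 0.08, adjusted p = 7e-08). *Eya2* was also lower, at 8.63 and 8.46 CPM against 11.8, 13.3 and 13.7 CPM (-0.64 ± 0.10, adjusted p = 6.66e-05). Without Foxd1-GC WT replicate 3 the difference in *Eya2* was -0.57 and was not called. *Six4* differed by 0.54 (adjusted p = 4.52e-05), under the fold change required, which it passed without Six2-TGC WT replicate 1 (0.60) or Foxd1-GC WT replicate 2 (0.59). For *Eya1* the difference of -0.05 had a 95% interval of -0.40 to 0.30, for *Eya3* 0.03 (-0.09 to 0.14) and for *Eya4* 0.13 (-0.07 to 0.33). Between the T1 lines 5 of the 7 were called, against 34.0% of all genes, with *Six2*, *Six5*, *Eya1* and *Eya2* lower and *Six4* higher in Six2-TGC. *Six4* (0.63) was not called without Foxd1-GC T1 replicate 3 (0.57). Between these T1 groups 4 of 6 nephron progenitor markers were also lower in Six2-TGC (*Cited1*, *Meox1*, *Crym* and *Spock2*), with summed levels of 312 to 326 CPM against 644 to 748 CPM. Skeletal muscle markers were lower for 5 of 6, at 4.85 to 5.28 CPM against 5.23, 7.75 and 72.6 CPM, so 1 Foxd1-GC library held most of the muscle RNA. Of 6 stromal markers, 2 were higher in Six2-TGC (*Pdgfra* and *Tcf21*) and 2 lower (*Foxd1* and *Col1a1*). Higher too were 2 of 5 macrophage markers (*Adgre1* and *Cx3cr1*) and 1 of 4 neural markers (*Stmn2*), and 1 of 5 ureteric tree markers was lower (*Wnt11*). The part of these cells in the member differences was not tested. *Eya1* was at 34.4 and 30.3 CPM in Six2-TGC and at 99.2, 77.6 and 71.5 CPM in Foxd1-GC, with a log2 difference of -1.38 ± 0.17 (adjusted p = 7.89e-06).

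The order of *Six2* levels over the 11 groups ran from sorted Six2-TGC cells at E14.5 down to sorted Foxd1-GC cells. It was 808, 930 and 848 CPM in WT and 517, 539 and 393 CPM in T1 at E14.5, and 219, 202 and 266 CPM in WT and 78.7, 94.8 and 99.6 CPM in T1 at E18.5. The whole Foxd1-GC T1 kidneys overlapped the sorted WT cells of E18.5 in range, and the whole T3 group overlapped both the whole T1 group and the sorted Foxd1-GC cells. In sorted Foxd1-GC cells *Six2* was at 9.85 to 17.0 CPM in WT and 8.96 to 17.9 CPM in T1, which is 26 to 62 counts per library. The sorted Foxd1-GC WT and T1 ranges also overlapped, and the other neighbours in the order did not.

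Per exon length, *Six2* was the most abundant of the 8 genes in sorted WT Six2-TGC cells at E14.5, at 407 ± 29.5 RPKM (SD, n = 3). *Eya1* followed at 45.7 ± 5.67 RPKM and *Six3* at 28.0 ± 1.69 RPKM. *Eya2* had 11.03 ± 1.36 RPKM, *Six5* 9.64 ± 0.293 RPKM and *Eya4* 6.15 ± 0.364 RPKM, and *Eya3* and *Six4* were lowest at 3.88 ± 0.334 and 3.30 ± 0.144 RPKM. In whole WT Six2-TGC kidneys *Six2* was at 20.7 ± 2.71 RPKM and *Eya3* at 13.9 ± 0.809 RPKM, with *Six3* at 3.24 ± 0.649 RPKM (n = 2). In whole WT Foxd1-GC kidneys *Six3* was at 0.00168 ± 0.00292 RPKM (n = 3).

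**Figure D3:**
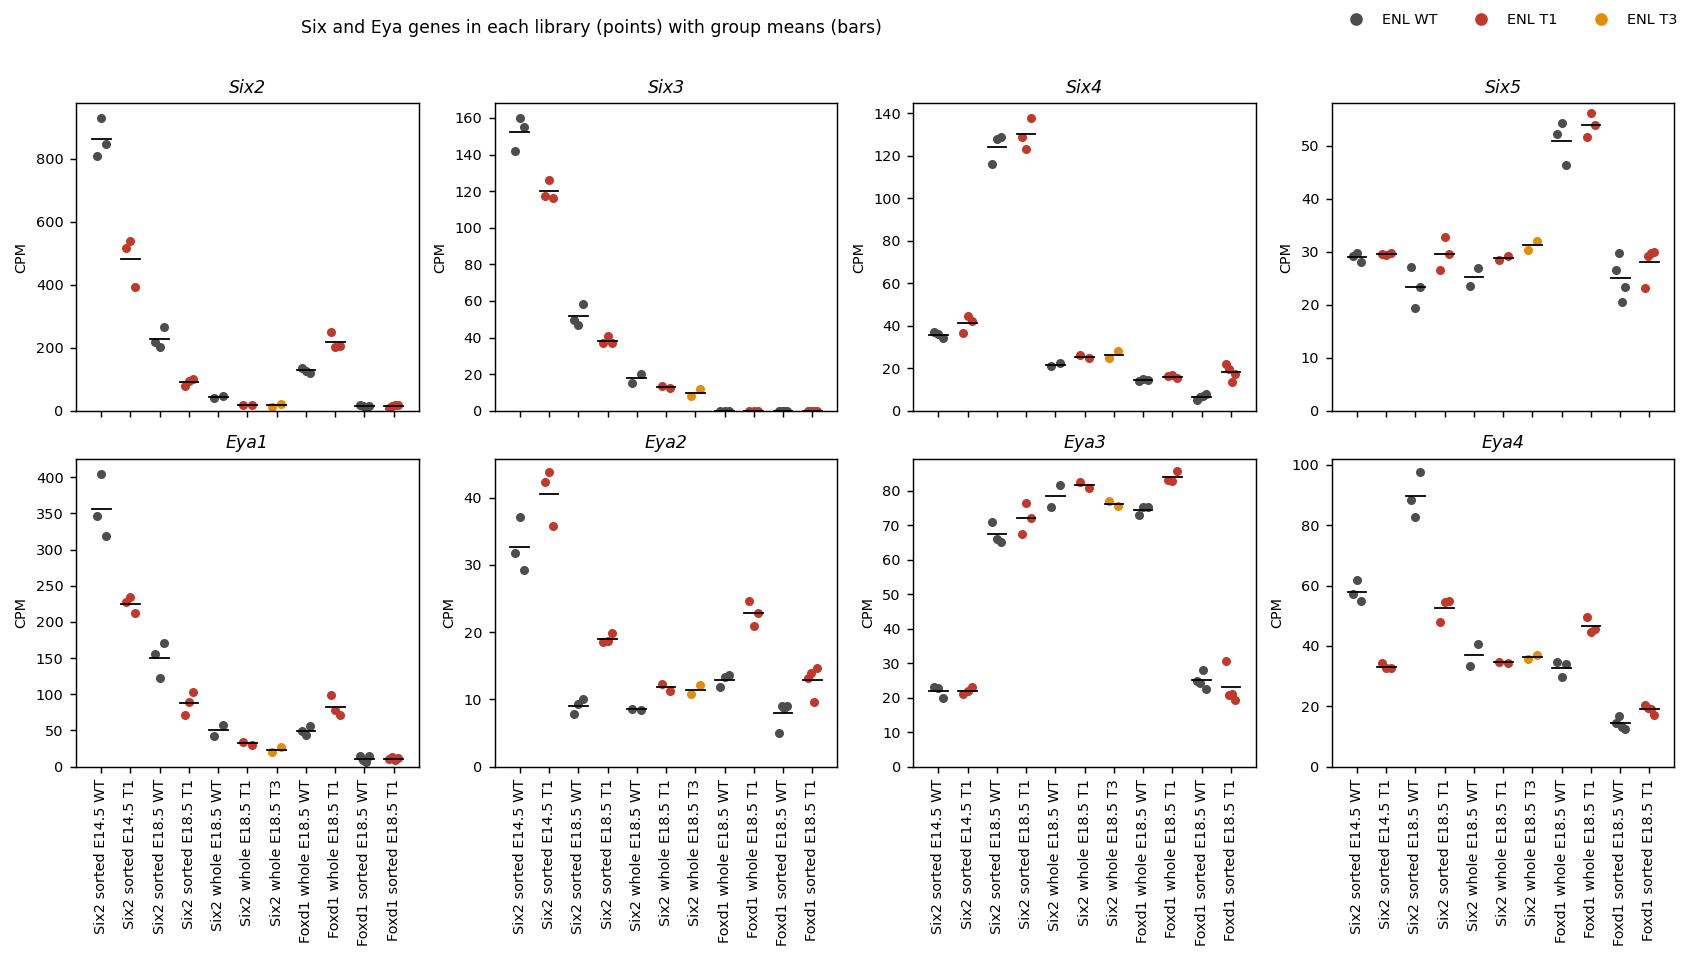
CPM of the 8 SIX-family and EYA-family genes in each of the 32 libraries (points) with group means (black bars), by group on the horizontal axis and colored by ENL genotype. *Six2* and *Eya1* are highest in sorted Six2-TGC cells at E14.5, *Six4* in sorted Six2-TGC cells at E18.5, and *Six3* lies at 0 in the Foxd1-GC groups apart from 1 library with 2 counts.

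The members moved apart between E14.5 and E18.5 in sorted WT Six2-TGC cells. At the stricter limits used here (adjusted p under 0.01, more than 2-fold), 6 of the 8 were called, where 45.5% of all tested genes were. *Six2* fell by 1.94 ± 0.13 on the log2 scale, *Eya2* by 1.88 ± 0.12, *Six3* by 1.59 ± 0.08 and *Eya1* by 1.29 ± 0.14, all with adjusted p-values at or below 7.6e-07. *Six3* went from 142, 160 and 155 CPM at E14.5 to 49.7, 47.1 and 58.5 CPM. *Six4*, a paralog with a broad embryonic expression, rose from 37.0, 36.3 and 34.0 CPM to 116, 128 and 129 CPM (1.76 ± 0.08, adjusted p = 4.87e-11). *Eya3* rose from 23.1, 22.9 and 19.8 CPM to 71.0, 66.1 and 65.3 CPM (1.59 ± 0.08, adjusted p = 1.2e-10). *Eya4* differed by 0.60 ± 0.08, under the fold change required, and *Six5* by -0.34 ± 0.11. The median log2 difference over all genes was 0.02, and it was -0.12 with library size only and 0.15 with relative-log size factors, under which all 6 calls and their directions held. All 5 endothelial markers were higher at E18.5, with summed levels of 5.03 to 7.12 CPM at E14.5 and 39.2 to 45.7 CPM at E18.5. Macrophage markers were lower for 3 of 5, at 5.95 to 64.4 CPM and 15.9 to 21.7 CPM. Of 6 nephron progenitor markers, *Meox1* and *Crym* were lower, *Spock2* was higher and 3 were not called. Of 6 stromal markers 2 were lower (*Foxd1* and *Meis1*), as was 1 of 5 ureteric tree markers (*Wnt11*). Of 4 neural markers 2 were higher (*Tubb3* and *Elavl3*) and 1 lower (*Stmn2*). The part of these cells in the member changes was not tested. The 2 stages were dissociated with different enzymes, trypsin at E14.5 and collagenase II at E18.5, and stage and dissociation cannot be told apart.

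Expression of ENL-T1 in the nephron lineage went with less *Six2*, *Eya1* and *Eya4* in sorted cells. At E14.5, 3 of 8 members were called, all lower, where 6.4% of all tested genes were called. *Six2* was 1.78-fold lower (log2 change -0.84 ± 0.11, adjusted p = 0.00211). *Eya1* went from 346, 405 and 318 CPM to 227, 235 and 212 CPM (-0.66 ± 0.08, adjusted p = 0.00167). Without WT replicate 2 its change was -0.56 and fell short of the fold change required. *Eya4*, which has a known part in inner ear and heart muscle, went from 57.2, 61.7 and 55.0 CPM to 34.2, 32.6 and 32.5 CPM (-0.81 ± 0.06, adjusted p = 0.000144). *Six3* was at 117, 126 and 116 CPM in T1, a change of -0.35 ± 0.06 (adjusted p = 0.00552) that was smaller than the fold change required.

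At E18.5 *Six2*, *Eya1* and *Eya4* were again lower and *Eya2* was higher, 4 of 8 members called against 11.7% of all genes. *Six2* was 2.45-fold lower (-1.29 ± 0.11, adjusted p = 1.55e-06). *Eya1* was at 155, 122 and 171 CPM in WT and 70.8, 88.6 and 103 CPM in T1 (-0.73 ± 0.13, adjusted p = 0.00121). *Eya4* was at 88.4, 82.9 and 97.6 CPM in WT and 47.9, 54.7 and 54.8 CPM in T1 (-0.73 ± 0.08, adjusted p = 1.98e-05). The WT and T1 values of these genes did not overlap, which adds no evidence to calls made on the same libraries. *Eya2* was 2.16-fold higher, from 7.89, 9.29 and 10.03 CPM to 18.6, 18.6 and 19.8 CPM (1.11 ± 0.11, adjusted p = 9.28e-06). *Six3* changed by -0.39 ± 0.09 (adjusted p = 0.00839) and *Six5* by 0.38 ± 0.12 (adjusted p = 0.0397), both under the fold change required. The 95% interval was -0.04 to 0.25 for *Six4* and -0.01 to 0.29 for *Eya3*.

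The T1 effect on *Eya2* was larger at E18.5 than at E14.5, where its change was 0.31 ± 0.11. The stage by genotype interaction was 0.81 ± 0.16 (adjusted p = 0.00664), the single member called of 8, where 8.16% of all genes were called. For *Six2* the interaction was -0.45 ± 0.18 with an adjusted p of 0.154, and it was called without E14.5 T1 replicate 3 (-0.57, adjusted p = 0.0476) and without the count filter (-0.50, adjusted p = 0.0186).

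Other markers moved in these cells. The summed nephron progenitor markers were 672 to 809 CPM in WT and 397 to 419 CPM in T1 at E14.5, and 957 to 1217 CPM and 378 to 452 CPM at E18.5, and 4 of 6 fell at both stages (*Cited1*, *Crym*, *Spock2* and *Itga8*). The summed stromal markers were 398 to 477 CPM in WT and 629 to 1124 CPM in T1 at E14.5, and 246 to 368 CPM and 518 to 612 CPM at E18.5, with 4 and 3 of 6 rising. *Foxd1* itself fell at both stages and *Tcf21* at E18.5. The 5 macrophage markers summed to 15.9 to 21.7 CPM in WT and 46.0 to 56.1 CPM in T1 at E18.5, with 4 of 5 rising and none at 0. The skeletal muscle markers summed to 5.42 to 6.41 CPM in WT and 11.9 to 12.4 CPM in T1 at E18.5. Muscle *Tnnt3* rose at both stages and *Actc1* at E18.5. Of 5 ureteric tree markers, *Wnt11* rose at both stages. At E18.5 *Hoxb7* also rose, and *Wnt9b* and *Calb1* fell. Of 5 endothelial markers, *Emcn* rose at E14.5 and *Pecam1* fell at E18.5. Neural *Stmn2* rose at E14.5. The part of these cell types in the member changes was not tested.

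**Figure D4:**
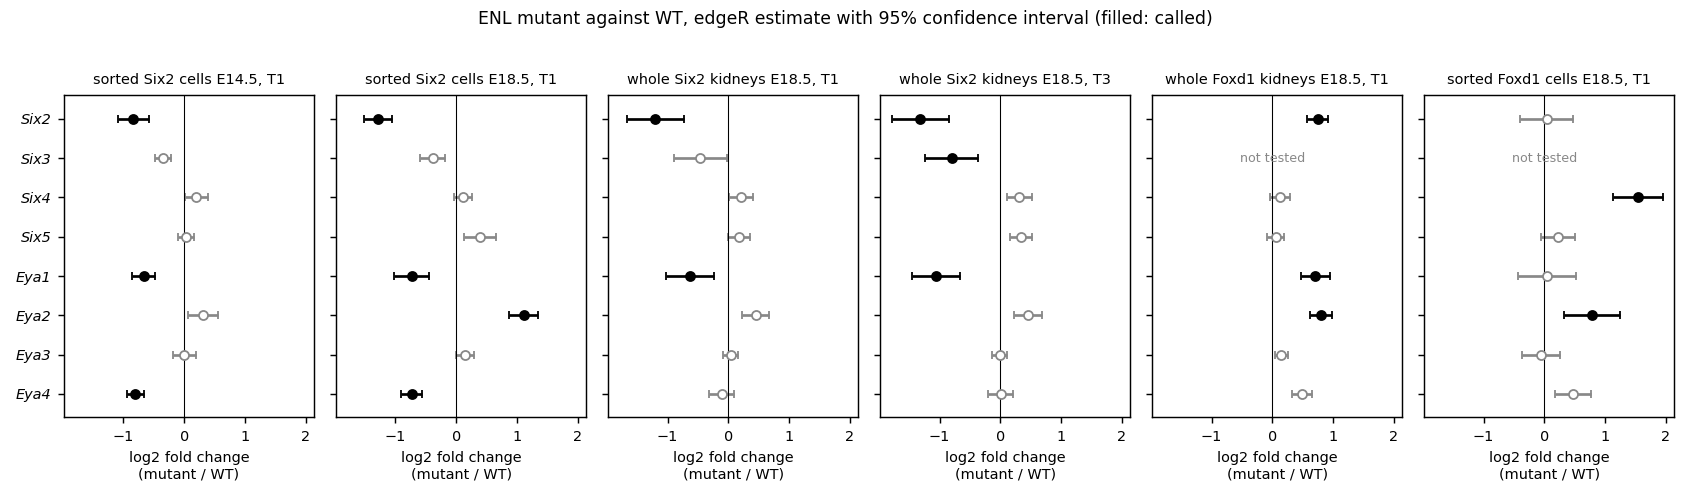
Log2 fold change of mutant over WT with its 95% confidence interval for the 8 genes in the 6 genotype comparisons, filled where called and open where not. *Six2* lies at -1.32 to -0.84 in the 4 Six2-TGC comparisons and at 0.75 in whole Foxd1-GC kidneys, and *Six3* was not tested in Foxd1-GC.

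Whole Six2-TGC kidneys at E18.5 showed the decrease in *Six2* and *Eya1* with both mutants, which were set against the same 2 WT libraries. In T1, 2 of 8 members were called, where 7.77% of all genes were. *Six2* went from 39.9 and 48.0 CPM to 19.2 and 19.5 CPM, 2.29-fold lower (-1.20 ± 0.20, adjusted p = 0.00708). *Eya1* went from 42.6 and 57.1 CPM to 34.4 and 30.3 CPM (-0.64 ± 0.17, adjusted p = 0.0446). *Six3* changed by -0.46 ± 0.18 (adjusted p = 0.164). *Eya2* changed by 0.45 ± 0.10 (adjusted p = 0.0217), under the fold change required, and *Eya4* by -0.11 with an interval of -0.31 to 0.09.

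In T3, 3 of 8 members were called, where 9.62% of all genes were. *Six2* was at 13.1 and 21.5 CPM, 2.49-fold lower than WT (-1.32 ± 0.20, adjusted p = 0.00407). *Eya1* was at 19.8 and 27.2 CPM, 2.08-fold lower (-1.06 ± 0.17, adjusted p = 0.00497). *Six3* was at 8.03 and 11.8 CPM, 1.74-fold lower (-0.80 ± 0.19, adjusted p = 0.024). *Six4*, *Six5* and *Eya2* had log2 changes of 0.31, 0.34 and 0.45, under the fold change required.

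The 2 WT libraries were not alike in muscle RNA. The summed level of 6 skeletal muscle markers was 8.04 CPM in WT replicate 1 and 37.9 CPM in WT replicate 2, and 4.85 to 6.77 CPM in the 4 mutant libraries. Several SIX-family and EYA-family genes are also known in developing muscle. Without WT replicate 2, *Six2* stayed called in T1 (-1.06, adjusted p = 0.0174) and T3 (-1.18, adjusted p = 0.0101), and so did *Eya1* in T3 (-0.84, adjusted p = 0.0116). *Eya1* in T1 (-0.42, adjusted p = 0.145) and *Six3* in T3 (-0.59, adjusted p = 0.0791) were then not called. These fits rest on 1 WT library, whose spread is taken from the T1 and T3 groups. *Six2* in T1 was not called without either T1 library (-1.16 and -1.20, adjusted p = 0.059 and 0.0629), nor was *Eya1* (-0.71 and -0.54), with the spread again taken from the other groups. *Six3* in T3 was also not called without T3 replicate 1 (-0.54) or T1 replicate 2 (-0.79). The summed nephron progenitor markers were 422 to 485 CPM in WT, 312 to 326 CPM in T1 and 273 to 295 CPM in T3, with 4 of 6 falling in each (*Cited1*, *Crym*, *Spock2* and *Gdnf*), and 4 of 5 macrophage markers rose in each, from 94.5 to 94.9 CPM in WT to 127 to 139 CPM in T1 and 127 to 140 CPM in T3. In T3, 3 of 5 ureteric tree markers fell (*Ret*, *Wnt9b* and *Calb1*), from 409 to 497 CPM to 258 to 328 CPM, and 2 of 6 stromal markers rose (*Pdgfra* and *Tcf21*). *Pdgfra* also rose in T1. The part of these cells in the member changes was not tested.

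Between T3 and T1 no member was called by edgeR's quasi-likelihood test, its exact test or DESeq2, where 0.00418% of all genes were called by the first. At an unadjusted p under 0.05 there was 1 member, *Eya1*, with a T3 minus T1 log2 difference of -0.42 (95% interval -0.82 to -0.03, adjusted p = 0.677). For *Six2* the difference of -0.12 had an interval of -0.59 to 0.35, and for *Six3* -0.34 had an interval of -0.78 to 0.10.

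In whole Foxd1-GC kidneys, where ENL-T1 was expressed in the stromal lineage, *Six2*, *Eya1* and *Eya2* went up. Of the 7 members tested 3 were called, all higher, where 10.2% of all genes were called. *Six2* rose 1.68-fold, from 137, 126 and 121 CPM to 249, 202 and 204 CPM (0.75 ± 0.08, adjusted p = 1.65e-05). *Eya1* rose from 49.4, 43.6 and 56.4 CPM to 99.2, 77.6 and 71.5 CPM (0.71 ± 0.11, adjusted p = 0.000374). *Eya2* rose from 11.8, 13.3 and 13.7 CPM to 24.7, 21.0 and 22.9 CPM (0.80 ± 0.08, adjusted p = 1.01e-05). No group overlapped. Without T1 replicate 1, *Eya1* changed by 0.56 and did not reach the fold change required. *Eya4* differed by 0.49 ± 0.07 (adjusted p = 0.000254), under that fold change, and the intervals were -0.03 to 0.29 for *Six4* and -0.08 to 0.20 for *Six5*.

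The summed nephron progenitor markers were 491 to 517 CPM in WT and 644 to 748 CPM in T1 of these kidneys, and 2 of 6 rose (*Crym* and *Spock2*). Their part in the member changes was not tested. The 6 skeletal muscle markers summed to 9.67 to 21.4 CPM in WT and to 5.23, 7.75 and 72.6 CPM in the 3 T1 libraries. The high T1 value thus came from 1 library.

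The effect of T1 on *Six2* and *Eya1* differed between the Cre lines. The interaction of Cre line and genotype in whole kidneys was -1.93 ± 0.22 for *Six2* (adjusted p = 9.09e-05), -1.33 ± 0.23 for *Eya1* (adjusted p = 0.00249) and -0.59 ± 0.13 for *Eya4* (adjusted p = 0.0132). These 3 of the 7 members were called, where 8.39% of all genes were. *Eya4* was not called without Six2-TGC WT replicate 2 (-0.43, adjusted p = 0.054), T1 replicate 1 (-0.58) or T1 replicate 2 (-0.60). For *Eya2*, which had positive changes in both lines, the interaction was -0.34 ± 0.13 with an adjusted p of 0.143. The interaction was also called for 5 of 6 nephron progenitor markers, all negative (*Cited1*, *Meox1*, *Crym*, *Spock2* and *Gdnf*), for muscle *Actc1* (-3.44) and for the macrophage markers *Csf1r* (0.40) and *Cx3cr1* (0.64). Of 6 stromal markers, 2 were called positive (*Pdgfra* and *Tcf21*) and 1 negative (*Foxd1*). Of 5 ureteric tree markers, 1 was positive (*Hoxb7*) and 1 negative (*Ret*). Their part in the member interactions was not tested.

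Sorted Foxd1-GC cells gave another picture. Of the 7 members tested 2 were called, where 5.81% of all genes were. *Six4* rose 2.90-fold, from 5.20, 6.67, 6.82 and 7.66 CPM in WT to 22.1, 19.4, 13.6 and 17.4 CPM in T1 (1.53 ± 0.20, adjusted p = 2.99e-05), which is 18 to 23 counts per WT library and 41 to 64 per T1 library. The groups did not overlap. *Eya2* was at 4.93, 8.99, 8.72 and 9.06 CPM in WT and at 13.1, 13.9, 9.60 and 14.7 CPM in T1 (0.78 ± 0.22, adjusted p = 0.0261). It was not called without WT replicate 1 (0.59), T1 replicate 2 (0.75) or T1 replicate 4 (0.71), nor with DESeq2. *Eya4* had a change of 0.47 (adjusted p = 0.0441), under the fold change required. For *Six2* the change of 0.04 had an interval of -0.40 to 0.47 and for *Eya1* 0.04 an interval of -0.44 to 0.51. The 5 macrophage markers summed to 58.2 to 152 CPM in WT and 140 to 196 CPM in T1 with 3 of 5 rising, and 2 of 6 stromal markers fell (*Pdgfrb* and *Tcf21*). Their part in the member changes was not tested.

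Between the sorted WT lineages at E18.5, 5 of the 7 members other than *Six3* were called, all higher in Six2-TGC cells, where 72.7% of all genes were called. *Six4* was 15.7-fold higher, at 116, 128 and 129 CPM against 5.20 to 7.66 CPM. *Six2* was 12.4-fold, *Eya1* 10.9-fold, *Eya4* 5.11-fold and *Eya3* 2.22-fold higher. *Six5* (log2 difference -0.40 ± 0.13) and *Eya2* (-0.07, interval -0.47 to 0.32) were not called. The lineage by genotype interaction was called for 3 of the 7, against 15.9% of all genes. It was -1.31 ± 0.25 for *Six2* (adjusted p = 0.00066), -1.42 ± 0.19 for *Six4* (adjusted p = 1.67e-05) and -1.18 ± 0.15 for *Eya4* (adjusted p = 1.17e-05). For *Eya1* it was -0.75 (adjusted p = 0.0924), and it was called without Six2-TGC WT replicate 2 or T1 replicate 3 (-0.88 each), and without the count filter (-0.76, adjusted p = 0.00174).

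Over the 6 genotype comparisons, *Six2* and *Eya1* were each called lower in 4 and higher in 1. *Eya2* was called higher in 3, *Eya4* lower in 2, and *Six4* higher in 1. *Six3* was called lower in 1 of the 4 comparisons in which it could be tested. *Six5* and *Eya3* were called in none of the 6 with edgeR's quasi-likelihood test, its exact test or DESeq2. *Six5* had an adjusted p under 0.05 in 2 of the 6 (0.0397 in sorted Six2-TGC cells at E18.5 and 0.0227 in whole T3 kidneys) and *Eya3* in 1 (0.0321 in whole Foxd1-GC kidneys), each short of the fold change required. At an unadjusted p under 0.05 the counts were also 2 and 1.

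A list of 11 genes that work with SIX-family and EYA-family genes in the early kidney was read alongside: the *Pax2* and *Pax8* paired-box factors, the DACH cofactors *Dach1* and *Dach2*, the SIX-binding *Sobp*, the zinc-finger factors *Sall1*, *Osr1* and *Wt1*, and the paralogs *Hoxa11*, *Hoxc11* and *Hoxd11*. In sorted Six2-TGC cells with T1, 3 rose and 2 fell at E14.5, where 6.4% of all genes were called, and 4 rose and 2 fell at E18.5, where 11.7% were. *Osr1*, which marks early kidney progenitors, fell by 1.17 and 1.76 on the log2 scale, and *Sobp* by 0.68 and 1.12. *Hoxa11* rose by 0.61 and 3.17, *Hoxc11* by 1.68 and 2.58 and *Hoxd11* by 0.66 and 1.84. *Pax2* rose by 0.60 at E18.5. The median log2 change of the list was -0.02 at E14.5 and 0.32 at E18.5, and the median over all tested genes was 0.00 and 0.02.

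In whole Six2-TGC kidneys 3 of the 11 rose and 2 fell with T1, where 7.77% of all genes were called, and 4 rose and 1 fell with T3, where 9.62% were. *Osr1* fell by 0.78 and 0.69, and the *Hox* genes rose by 0.67 to 1.58. In the stromal lineage *Osr1* and *Sobp* rose. In whole Foxd1-GC kidneys 4 of 11 rose and the other 7 were not called, against 10.2% of all genes called, with *Osr1* at 0.78 and *Sobp* at 0.74. In sorted Foxd1-GC cells 5 rose and the other 6 were not called, against 5.81% of all genes, with *Osr1* at 0.84, *Sobp* at 0.60, *Dach2* at 0.64, *Hoxa11* at 1.10 and *Hoxc11* at 2.06. The medians of the list were 0.35 and 0.26 in whole Six2-TGC kidneys with T1 and T3, 0.34 in whole Foxd1-GC kidneys and 0.41 in sorted Foxd1-GC cells, where those over all genes lay between -0.01 and 0.00. The interaction of Cre line and genotype was -1.54 for *Osr1* (adjusted p = 8.41e-05) and -1.39 for *Sobp* (adjusted p = 0.000966).

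Across the 11 group means of log2(CPM + 1), *Six2* and *Eya1* had a Pearson r of 0.95, the highest of any pair of members. The points share libraries, depth and Cre lines, so this is a description only. Among 19115 genes, those most like *Six2* were *Ubap2* (r = 0.983), *Sec61a1* (0.977), *Btbd11* (0.976), *Etv4* (0.974) and *Gpatch3* (0.972). Those most like *Eya1* were *Morf4l2* (0.994), *Hdgf* (0.987), *Rspo1* (0.985), *Rrp12* (0.985) and *Nat10* (0.985). Those most like *Six3* were Gm10157 (0.992), Gm44705 (0.992), Gm7290 (0.991), AC154779.2 (0.991) and Gm6900 (0.991), predicted or unnamed gene models.

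The remaining members lie on 6 chromosomes. *Six4* is at chr12:73099609-73113456 on the minus strand and *Six5* at chr7:19094594-19098549 on the plus strand. *Eya1* is at chr1:14168954-14310235 and *Eya4* at chr10:23102963-23350786, both on the minus strand. *Eya2* is at chr2:165595032-165771727 and *Eya3* at chr4:132638987-132724765, both on the plus strand.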

How the data were processed

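The deposited values are counts of reads per gene. The authors selected polyadenylated RNA (whole kidneys: a stranded kit; sorted cells: a low-input kit), aligned reads to mm10 with HISAT2 and ran HTSeq unstranded with no quality cut-off. The annotation release is not given in the sources used here. Symbols of 55450 of the 55806 identifiers came from a table of gene names, and positions from GENCODE vM21 on GRCm38. Promoter windows are from RefSeq. Counts were tested in R 4.3.3 with edgeR 4.0.16 (filterByExpr with a minimum count of 10 and total of 15, TMM factors, quasi-likelihood test, Benjamini-Hochberg adjustment over all tested genes). The 6 whole Six2-TGC libraries were fitted together, and genotype comparisons of the other experiments each on their own libraries. Development, lines and interactions were fitted on all sorted Six2-TGC, all whole kidney (T3 included) or all sorted E18.5 libraries. Called means adjusted p under 0.05 plus a fold change over 1.5 (development 0.01 and 2; interactions 0.05 alone). Overlap of groups is described for named genes only, on the libraries that were tested, and its share over all genes is not given. CPM used joint TMM factors over 54417 genes in all 4 tables. Permutation tests used scipy 1.17.1. A floor of 3 counts covers counting error only.

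Alternatives were library size only, size factors of DESeq2's kind, no count filter, edgeR's exact test, DESeq2 1.42.0, a replicate block, only the compared groups, another pseudocount for the ratio and each library left out. Scripts were tested on simulated data. Members, the network list, the marker lists and the tests were chosen with earlier results of these data known. Named genes were all members, the network list and the genes within 500 kb of *Six2* (those with at most 1 count in whole kidneys as a count). Marker genes were named in part, most of them called or at 0. For *Six2*, *Six3* and *Eya1*, the 5 genes most alike were also named.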

Additional observations from a re-analysis of the deposited data

Results flagged for a closer look

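Among the sorted Foxd1-GC groups of 4 libraries, 4 of 14 sets of values had a library far from the other three, where chance gives about 1 in 20. *Six2* was at 9.85 CPM in WT replicate 3. *Eya2* was at 4.93 CPM in WT replicate 1. *Six5* was at 23.1 CPM and *Eya3* at 30.7 CPM in T1 replicate 1. These values rest on low depth.

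Some effects of T1 differed between settings by a test of the difference. *Eya2* had a stage by genotype interaction of 0.81 (log2) in sorted Six2-TGC cells. Between the Cre lines in whole kidneys, the interaction was -1.93 for *Six2*, -1.33 for *Eya1* and -0.59 for *Eya4*. Between the sorted lineages at E18.5 it was -1.31 for *Six2*, -1.42 for *Six4* and -1.18 for *Eya4*. Cre line, read length and any difference of cohort or sequencing run cannot be told apart in the interactions between lines.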

How the results depend on the processing

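Of 43 member changes called, 34 were called under every alternative. Of 709 alternative values of called changes, 688 kept their side of the threshold, 21 were no longer called and 0 changed sign. Of 930 values of changes not called, 7 became called. The labels do not say whether same-numbered libraries were pairs. Their deviations from the group means had r of -0.0791 to 0.139 over 16 same-number pairs, which cannot decide it with so few libraries per group. With the replicate block 0 called changes were lost and 0 gained. The number of members called was 1 with library size only in whole T1 Six2-TGC kidneys (2 as reported). It was 1 with DESeq2 in sorted Foxd1-GC cells (2) and 2 without the count filter for the stage interaction (1). The log2 ratio difference of *Six3* to *Six2* was 12.12 with WT libraries only (exact p = 0.2) and 12.38 with 1 added to each count. *Six3* in whole T3 kidneys was -0.80 with an adjusted p of 0.0521 when only the compared groups were fitted.

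With each library left out in turn, the number called ran from 1 to 2 in sorted Foxd1-GC cells, 2 to 3 in whole Foxd1-GC kidneys, 2 to 3 in sorted E14.5 cells, 1 to 2 for the stage interaction, 3 to 4 for the lineage interaction, 0 to 2 in whole T1 and 2 to 3 in whole T3 Six2-TGC kidneys, 2 to 4 between the WT lines, 4 to 5 between the T1 lines and 2 to 3 for the Cre line interaction. The log2 ratio difference ran from 13.10 to 13.74 (exact p = 0.004329), and the mean T1 difference in the ratio from 0.68 to 0.75.

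With library size only, 59.0% of the calls over all genes were positive for the stage interaction and 62.4% for the lineage interaction, against 48.3% and 48.1% with TMM factors.

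The 40 changes of sign concerned 18 values, none of them called. With library size only, *Six3* had a stage interaction of 0.013, *Eya2* a difference of 0.026 between the sorted WT lineages and *Eya3* a change of 0.060 in whole T3 kidneys. For *Eya2* between those lineages the value was 0.27 without the filter and 0.019 with DESeq2. *Eya3* in sorted E14.5 cells was -0.00034 with other size factors and -0.00062 with DESeq2, and *Eya2* in T3 against T1 was 0.00050 with the replicate block. The other changes of sign came with a library left out. In the WT Cre lines the range was -0.28 to 0.16 for *Eya1*, -0.039 to 0.10 for *Eya3*, -0.031 to 0.28 for *Eya4*. In sorted Foxd1-GC cells the range was -0.11 to 0.19 for *Eya1*, -0.23 to 0.021 for *Eya3*, -0.087 to 0.20 for *Six2*. In the stage interaction the range was -0.25 to 0.020 for *Eya1*, -0.023 to 0.12 for *Eya4*, -0.15 to 0.015 for *Six3*. In the sorted WT lineages the range was -0.29 to 0.045 for *Eya2*. In T3 against T1 the range was -0.089 to 0.079 for *Eya2*, -0.52 to 0.19 for *Six2*. In sorted E14.5 cells the range was -0.068 to 0.041 for *Eya3*. In whole T3 kidneys the range was -0.044 to 0.041 for *Eya3*, -0.11 to 0.15 for *Eya4*. In whole T1 Six2-TGC kidneys the range was -0.22 to 0.037 for *Eya4*. In the Cre line interaction the range was -0.0028 to 0.15 for *Six4*. In whole Foxd1-GC kidneys the range was -0.012 to 0.094 for *Six5*. The cause was not tested. Depth limits the sorted Foxd1-GC values, where *Six2* had 26 to 62 counts.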
